A study of Mus musculus with 12 samples.

Results

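The wells described here are stem cell-like wells of fetal mouse liver, chosen by the UMI counts of 5 genes of haematopoietic stem cells: Hlf, Meg3, Mecom, Mllt3 and Procr. Every well with at least 3000 UMIs (unique molecular identifiers, random tags that count single mRNA molecules) outside the spike-ins was scored by the mean over these genes of log2(1 + UMIs per 10000). The top 12% over all plates were kept, 337 of 2811 wells, and 6 of them with any UMI of the erythroid factor gene Klf1 were left out. This gave 331 stem cell-like wells and 2480 other wells, 524 of which held a Klf1 UMI. Since these measured values selected the wells, the levels of the 5 genes and of Klf1 are given as a description without a test. All other genes were outside the rule, although they were read from the same wells.

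The study sorted LSK cells singly: these lack lineage antigens, carry Sca-1 and Kit, and include blood stem cells and multipotent progenitors, from livers of C57BL/6J fetuses at embryonic day 18.5. Each library is a multiwell plate of single cells read by SORT-seq, which counts the 3' ends of mRNAs. The double mutant, homozygous for Pcna K164R and for the Rev1 knockout, had 4 plates. Rev1 knockout had 3, homozygous Pcna K164R had 2 and WT had 3. Rev1 is a translesion DNA polymerase, and Pcna is the sliding clamp of replicative polymerases, whose lysine altered in K164R is ubiquitinated at stalled forks. The labels do not say how many fetuses a plate holds or whether plates of a genotype come from separate fetuses, so p-values measure the spread between plates, which may be technical. The wells were sorted in 3 sessions: session 1 holds double mutant replicates 1 and 2, both Pcna K164R plates and WT replicate 1, session 2 holds double mutant replicate 3 and Rev1 knockout replicate 1, and session 3 holds the rest.

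Blood stem cells of the fetal liver are the source of all blood lineages, and unlike most adult stem cells they divide while their pool expands. Hlf is a basic leucine zipper transcription factor that marks the stem cell compartment. Mecom, also called Evi1, and Mllt3 are nuclear regulators needed to maintain stem cells. Procr encodes the endothelial protein C receptor, a surface antigen used to sort them, and Meg3 is a maternally expressed long non-coding RNA of the imprinted Dlk1-Meg3 locus. In GRCm38 with the GENCODE M21 annotation, Hlf lies on the minus strand of chromosome 11 at 90336536 to 90390895, Mecom on the minus strand of chromosome 3 at 29951296 to 30548008 and Mllt3 on the minus strand of chromosome 4 at 87769925 to 88033364. Meg3, a long intergenic RNA gene, lies on the plus strand of chromosome 12 at 109541001 to 109571726, and Procr on the plus strand of chromosome 2 at 155751117 to 155755471.

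The stem cell-like wells held 3090 to 50798 UMIs each, with a median of 12492, against a median of 19745 in the other wells. All 12 plates use the same well labels, so wells are told apart by plate and label. Sums per plate ran from 84258 UMIs over the 5 stem cell-like wells of double mutant replicate 1 to 1203941 UMIs over the 73 of Rev1 knockout replicate 1. Double mutant replicate 3 had 17 wells of sufficient depth and no stem cell-like well, and replicate 4 had 1 such well, so neither entered the gene tests, which used 10 plates. The Rev1 gene itself gave 0 UMIs in the stem cell-like wells of the double mutant plates, 7, 0 and 1 in Rev1 knockout replicates 1 to 3, 8 and 0 in the Pcna K164R plates and 11, 11 and 6 in the WT plates. In the other wells of the library labelled double mutant replicate 4, Rev1 stood at 0.140 UMIs per 10000. This lay within the 0.110 to 0.196 of the WT plates, so the Rev1 level does not bear out the label. Whether the label is wrong could not be settled. Where the knockout allele is altered is not given in the sources used here, and a 3' read outside that region checks nothing.

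Scores of the stem cell-like wells ran from 1.41 to 3.37 with a median of 1.77, against a median of 0.55 in the other wells. The 3 wells just inside the limit scored 1.4137, 1.4147 and 1.4162 and the 3 just outside scored 1.4122, 1.4119 and 1.4113. Within 0.1 of the limit lay 55 stem cell-like wells and 71 Klf1-free other wells, so the class is a range of a continuous score. All 5 genes were detected in 145 stem cell-like wells, 4 in 143, 3 in 40 and 2 in 3 wells, while 50 of the other wells held all 5. Hlf was the most abundant, with a median of 7.62 UMIs per 10000 in stem cell-like wells against 2.36 in the other wells. The median level of Mecom was 3.08, of Mllt3 2.82, of Meg3 1.70 and of Procr 0.848 UMIs per 10000 in stem cell-like wells. At a matched depth of 3000 UMIs per well, Hlf was detected in 88.2% of stem cell-like wells, Mllt3 in 61.3%, Mecom in 59.5%, Meg3 in 44.4% and Procr in 28.4%. In the 524 Klf1-positive wells, given for comparison and not known to lack these genes, the shares at that depth were 24.2% for Hlf, 17.6% for Mllt3, 7.82% for Mecom, 1.72% for Meg3 and 2.10% for Procr. The median depths before thinning were 12490 UMIs in stem cell-like wells and 34710 in Klf1-positive wells. Of the sorting antigens, Kit was detected in 96.7% and Ly6a, which encodes Sca-1, in 59.2% of stem cell-like wells at full depth.

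Among plates with at least 50 wells, stem cell-like wells made up a smaller share of each plate labelled double mutant than of any plate of the other genotypes. They were 5 of 335 wells (1.49%, exact Clopper-Pearson 95% interval 0.486 to 3.45) in double mutant replicate 1 and 6 of 249 (2.41%, 0.889 to 5.17) in replicate 2. Replicate 3 had 0 of 17, which allows a share of up to 17.6% by the limit of 3 counts and of 19.5% by the exact interval, and the library labelled double mutant replicate 4 had 1 of 83 (1.205%, 0.0305 to 6.53). In Rev1 knockout replicates 1, 2 and 3 the shares were 23.1%, 8.04% and 9.77%, in the Pcna K164R plates 11.7% and 10.04%, and in WT replicates 1, 2 and 3 16.7%, 18.7% and 19.9%. Over plates with at least 50 wells the double mutant averaged 1.70 ± 0.63% (SD over 3 plates) and Rev1 knockout 13.6 ± 8.24% (3 plates). Pcna K164R averaged 10.9 ± 1.18% (2 plates) and WT 18.4 ± 1.59% (3 plates). Leaving out the library labelled double mutant replicate 4 gave a double mutant mean of 1.95%. The share is a cut of the measured score, so it is a description of these plates with no test, and the intervals cover counting error only. Lower Hlf and Meg3 in double mutant plates were known when the rule was written, so the rule itself favours a low double mutant share.

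**Figure D1:**
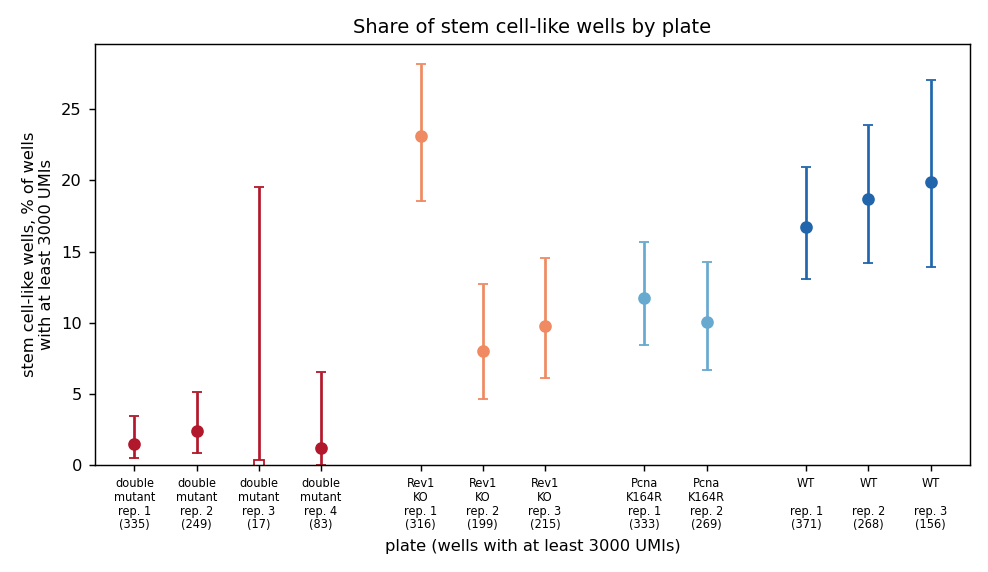
Share of wells with at least 3000 UMIs that are stem cell-like (y axis, percent) in each plate (x axis, number of such wells in parentheses). Points are plates, bars are exact 95% intervals, and the open square is the plate with 17 wells. The plates labelled double mutant lie at 0 to 2.41% and the 3 WT plates at 16.7 to 19.9%. The former include replicate 4, whose Rev1 level in other wells lay in the WT range.

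In session 1 the double mutant plates had 1.49% and 2.41% against 16.7% in WT replicate 1. In session 3 the library labelled double mutant replicate 4, whose Rev1 level in other wells lay in the WT range, had 1.205% against 18.7% and 19.9% in WT. The Rev1 knockout plates split by session. Both plates of session 3, at 8.04% and 9.77%, lay below the WT plates of that session, whereas the plate of session 2, at 23.1%, had no WT plate in its session. The other wells of double mutant replicates 1 and 2 were also deeper, with medians of 32620 and 37670 UMIs against 15380, 9101 and 13720 in the WT plates, and depth enters the score. After every well was thinned to 3000 UMIs before scoring, the mean share was 3.60 ± 1.21% in the double mutant, 12.8 ± 7.33% in Rev1 knockout, 8.71 ± 1.28% in Pcna K164R and 19.7 ± 2.02% in WT. That selection shared 225 of the 331 wells, 68.0% of them.

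Meg3 was nearly missing from the stem cell-like wells of the double mutant. It stood at 11.7 and 0 CPM (library-scaled UMI counts, with TMM size factors) in double mutant replicates 1 and 2, a single UMI over 247708, against 264, 383 and 304 CPM in Rev1 knockout, 133 and 170 CPM in Pcna K164R and 306, 316 and 394 CPM in WT. These wells therefore scored through the other genes of the rule. The median Mecom level was 4.14 and 4.39 UMIs per 10000 in double mutant replicates 1 and 2 against 2.00, 4.23 and 3.30 in the WT plates, and the median Procr level was 1.40 and 1.07 against 0.604, 1.13 and 0.928. In mean CPM over plates, Hlf (613 in the double mutant against 861 in WT) and Mllt3 (255 against 319) were lower. By the same measure Mecom was at 419 against 401 and Procr at 122 against 128. With Meg3 left out of the score the double mutant mean share was 2.77% against 17.8% in WT.

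Stem cell-like wells held fewer UMIs than other wells of the same plate. The plate median of UMIs per well averaged 13850 ± 4143 in stem cell-like wells and 20550 ± 8675 in other wells (SD, n = 10 plates), lower in 10 of 10 plates. The ratio of endogenous UMIs to the ERCC spike-ins, synthetic RNAs added in equal amount to each well, was compared too. A well's UMIs enter both the score and this ratio, so the 2 are not independent. Endogenous UMIs per ERCC UMI averaged 23.05 ± 7.49 in stem cell-like wells and 35.75 ± 12.7 in other wells, a mean log2 difference of -0.62 that was below 0 in 10 of 10 plates (exact two-sided sign-flip permutation test over plates, p = 0.00195, the smallest it can give, adjusted p = 0.0026 over 4 measures). With wells chosen after thinning to 3000 UMIs the mean log2 difference was smaller, -0.42 for the ERCC ratio and -0.38 for UMIs per well, and below 0 in 10 of 10 plates for each. At 3000 UMIs, 1612 ± 30.7 genes were detected in stem cell-like wells and 1560 ± 29.2 in other wells, higher in 10 of 10 plates (exact permutation adjusted p = 0.0026). The mitochondrially encoded share was 8.46 ± 1.10% in stem cell-like wells and 8.64 ± 1.13% in other wells, a difference within the spread of the plates (exact permutation p = 0.481).

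**Figure D2:**
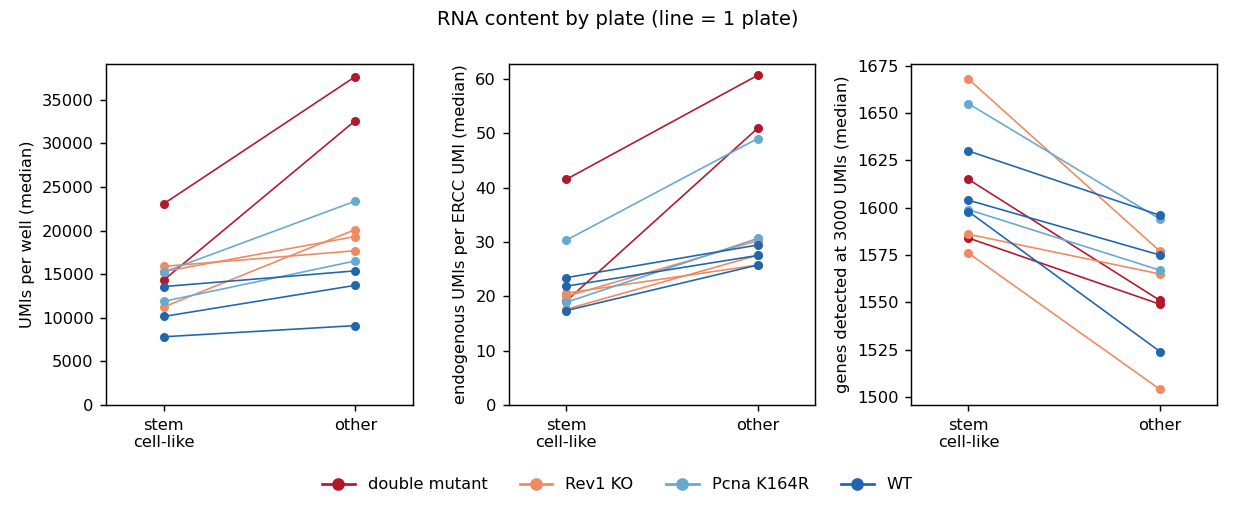
Plate medians of UMIs per well, of endogenous UMIs per ERCC UMI and of genes detected at 3000 UMIs (y axes) in stem cell-like wells (left) and other wells (right). Each line is 1 of 10 plates, coloured by genotype, and the first 2 measures are lower and the last is higher in stem cell-like wells of all 10 plates. The axis of the last panel does not start at 0.

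The comparison with other wells of the same plate shows what the stem cell-like wells express beyond the 5 genes. UMIs were summed per plate and class and tested with edgeR's quasi-likelihood test with plate as a block and Benjamini-Hochberg adjustment, over 10 plates. Of 9638 genes tested, 1786 (18.5%) were higher and 2038 (21.1%) were lower in stem cell-like wells, and the median log2 fold change of all genes was -0.01.

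Ifitm1, an interferon-induced membrane protein, stood at 1220 to 2063 CPM with a median of 1498 in stem cell-like wells, against 489 to 746 with a median of 613 in other wells. The ranges of the 10 plates did not overlap, and the log2 fold change was 1.305 ± 0.054 (SE, edgeR adjusted p = 1.71e-25). Pdzk1ip1, also known as MAP17 and a marker of dormant and long-term stem cells, stood at 49.1 to 109 CPM with a median of 94.6, against 7.32 to 17.6 with a median of 12.5 (log2 fold change 2.84 ± 0.14). Col4a2 and Col4a1, the paired chains of basement membrane collagen IV that are read from a shared promoter region, had log2 fold changes of 2.12 ± 0.10 and 2.03 ± 0.11. Esam, an adhesion molecule of endothelium and stem cells, averaged 88.3 ± 21.6 CPM in stem cell-like wells and 22.8 ± 4.63 in other wells (1.96 ± 0.12). Nkx2-3, a homeobox factor, averaged 88.2 ± 21.8 CPM in stem cell-like wells and 19.99 ± 3.86 in other wells (2.09 ± 0.14). For Pdzk1ip1, Col4a2, Col4a1, Esam and Nkx2-3 the ranges of both classes stayed apart over the 10 plates.

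The thromboxane synthase gene Tbxas1 (2.21 ± 0.12), the cytokine feedback inhibitor Socs2 (1.501 ± 0.090), the small GTPase Rab38 (1.42 ± 0.09), the redox regulator Txnip (1.08 ± 0.07) and Ptplad2 (2.03 ± 0.14) rose in stem cell-like wells of all 10 plates. The secreted factor genes Ndnf and Pdgfc were scarce in other wells. Ndnf averaged 51.1 ± 22.0 CPM in stem cell-like wells and 5.35 ± 2.53 in other wells, and Pdgfc averaged 27.5 ± 13.8 and 1.49 ± 0.734 CPM in the same order, with log2 fold changes of 3.26 ± 0.22 and 4.04 ± 0.28. The imprinted growth regulators H19, a non-coding RNA, and Igf2, a growth factor, completed the 15 genes with the smallest p. H19 stood at 111 to 914 CPM with a median of 384.8, against 39.2 to 212 with a median of 66.1, a log2 fold change of 2.38 ± 0.12. Igf2 had a log2 fold change of 3.63 ± 0.20 and was higher in 9 of 10 plates, the exception being double mutant replicate 1, which had 0 Igf2 UMIs in its 5 stem cell-like wells.

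On the lower side, Mpo, the myeloperoxidase of neutrophil granules, stood at 14.0 to 267 CPM with a median of 64.6 in stem cell-like wells, against 301 to 2405 with a median of 382 in other wells. The log2 fold change was -3.11 ± 0.10 (edgeR adjusted p = 3.91e-30). The granule protease Ctsg (-4.01 ± 0.19), the protease inhibitor Serpinb1a (-2.83 ± 0.13) and the calprotectin genes S100a8 (-5.62 ± 0.22) and S100a9 (-5.38 ± 0.23) fell with it. The mast cell proteases Tpsb2 (-3.72 ± 0.16), Cpa3 (-3.91 ± 0.17) and Cma1 (-5.20 ± 0.24) fell too, lower in 8 to 10 of 10 plates, with ranges that overlapped. S100a8 and S100a9 were at 0 in the stem cell-like wells of 4 and 5 plates and ranged from 0 to 1563 and from 0 to 1026 CPM in other wells. The metallothioneins Mt2 (-3.90 ± 0.13) and Mt1 (-3.10 ± 0.14) completed the list. Against other wells without a Klf1 UMI, Mt2 was no longer lower (0.17, edgeR adjusted p = 0.538) and Mt1 was lower by less (-0.74 ± 0.15). Of the 25 genes, 23 were tested against those wells and 22 of them were called in the same direction.

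**Figure D3:**
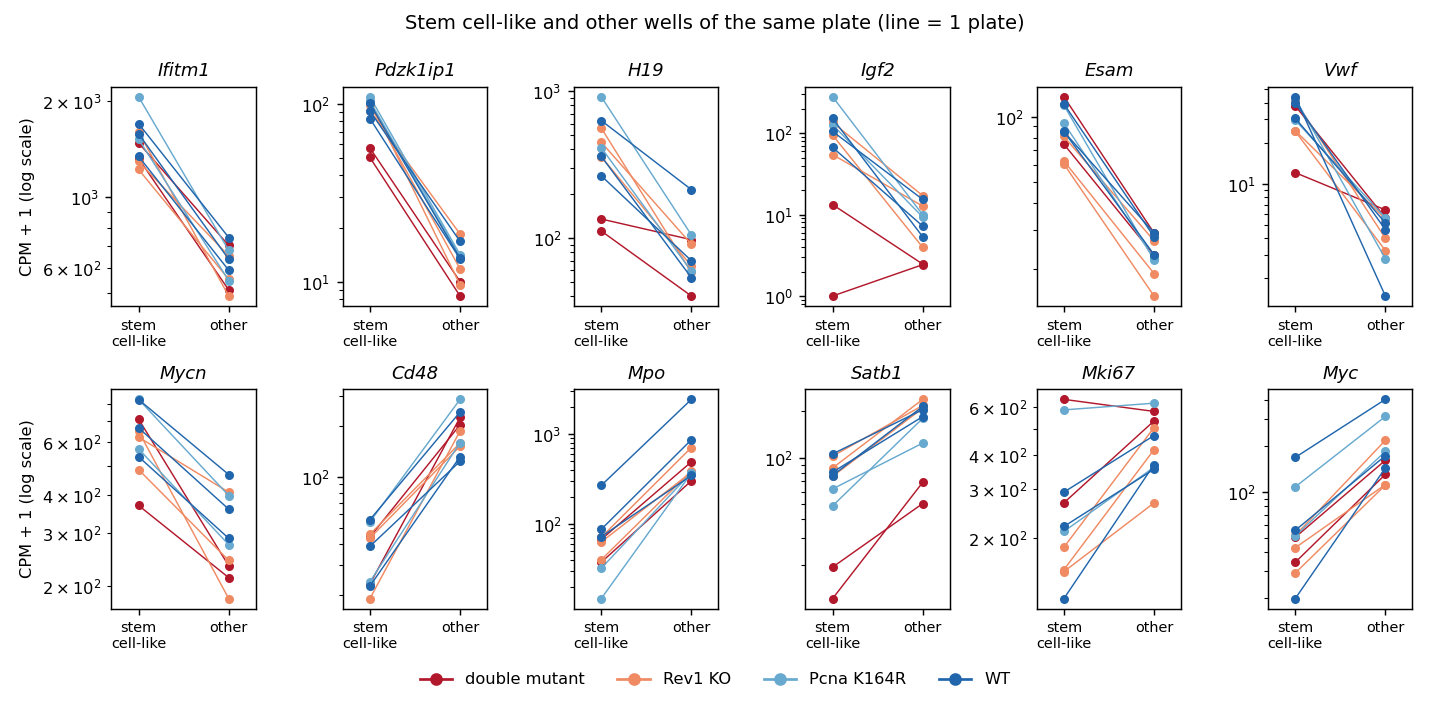
CPM + 1 on a log scale of 12 genes in stem cell-like wells (left) and other wells (right) of each plate, each line 1 of 10 plates coloured by genotype. Ifitm1, Pdzk1ip1, H19, Esam, Vwf and Mycn are higher and Cd48, Mpo, Satb1 and Myc lower in all 10 plates, while Igf2 and Mki67 each go the other way in 1 double mutant plate.

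Genes known from blood stem cells, other than the 5 of the rule, were higher nearly throughout. Of 28 tested, 25 rose and 1 fell, against 18.5% of all genes higher, with a median log2 fold change of 1.18 against -0.01 for all genes. The von Willebrand factor gene Vwf (3.27 ± 0.25), which marks platelet-biased stem cells, rose most, followed by Pdzk1ip1, Trim47 (2.25 ± 0.18), Ctnnal1 (2.01 ± 0.15), the angiopoietin receptor Tek (1.97 ± 0.21) and Esam. Cdkn1c, the p57 inhibitor of cyclin-dependent kinases, averaged 90.7 ± 35.2 CPM in stem cell-like wells and 29.2 ± 8.25 in other wells (1.61 ± 0.13). Hmga2 (0.14 ± 0.07) and Mn1 (-0.06 ± 0.16) did not pass, and Gfi1b, a repressor of stem cells and erythroid and megakaryocytic cells, fell (-1.99 ± 0.22). Summed over the list, the level was 65.8 ± 7.48 UMIs per 10000 in stem cell-like wells and 31.5 ± 4.70 in other wells, higher in 10 of 10 plates.

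Among the 24 surface antigens tested, Cd48 of the SLAM family had the log2 fold change furthest from 0. Cd48, which is absent from long-term stem cells and present on their progeny, stood at 18.0 to 54.6 CPM with a median of 40.0 in stem cell-like wells, against 122 to 285 with a median of 171 in other wells, with a fitted log2 difference of -2.38 ± 0.12 (edgeR adjusted p = 8.92e-22). At 3000 UMIs it was detected in 8.46% of stem cell-like wells, against 36.4% of other wells. Slamf1, or CD150, the antigen that marks stem cells in the same scheme, rose (1.83 ± 0.34) but was sparse, at 13.7 ± 12.1 CPM in stem cell-like wells and 4.44 ± 3.14 in other wells. Cd34 (-0.59 ± 0.08) and Flt3 (-0.68 ± 0.09), antigens of multipotent progenitors, fell in all 10 plates. Ly6a rose (0.73 ± 0.12), higher in 9 of 10 plates, and Kit was at 0.11 ± 0.06 and did not pass (edgeR adjusted p = 0.154). Of 24 antigens tested 10 rose and 5 fell, the count lower being near the 21.1% lower of all genes.

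Transcription factors of stem cells had 13 of 24 higher and 3 lower, with a median log2 fold change of 0.38. The pair of Myc genes moved apart. Mycn rose to 626 ± 145 CPM in stem cell-like wells, against 306 ± 95.7 in other wells (1.03 ± 0.07), while Myc fell to 59.9 ± 44.1 CPM, against 193 ± 94.0 in other wells (-1.67 ± 0.10), and each did so in 10 of 10 plates. Prdm16 (1.59 ± 0.15), Ikzf2 or Helios (1.09 ± 0.08), Gfi1 (1.10 ± 0.11), Fli1 (0.88 ± 0.10) and Lmo2 (0.65 ± 0.05) rose, while Runx1 (0.09 ± 0.08), Myb (0.04 ± 0.06) and Tal1 (0.22 ± 0.10) did not pass. Of 10 homeobox genes of the Hox clusters and their cofactors 9 rose and none fell (median 0.99), including Hoxb3 (1.92 ± 0.28), Hoxa10 (1.43 ± 0.15), Hoxa5 (1.17 ± 0.11) and Meis1 (0.90 ± 0.08). The summed homeobox level was 9.13 ± 1.26 UMIs per 10000 in stem cell-like wells and 4.63 ± 1.01 in other wells.

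Imprinted genes other than Meg3 were higher in stem cell-like wells. Of 13 tested, 11 rose and none fell, with a median log2 fold change of 0.98. Besides H19, Igf2 and Cdkn1c these were the adaptor gene Grb10 (1.201 ± 0.08), Ndn (1.43 ± 0.16), Sgce (1.05 ± 0.18), the Igf2 receptor gene Igf2r (0.63 ± 0.12), Airn (0.98 ± 0.29), Peg12 (0.91 ± 0.31), Kcnq1ot1 (0.30 ± 0.05) and Dlk1 (0.50 ± 0.11), the neighbour of Meg3. Impact (0.30 ± 0.14) and Gnas (-0.01 ± 0.04) did not pass. Among genes of the fetal programme 6 of 11 rose and 2 fell: Igf2bp2 (0.91 ± 0.09) and Igf2bp1 (0.60 ± 0.15) rose, whereas their paralogue Igf2bp3 (-0.79 ± 0.09) and Hmgb3 (-0.80 ± 0.09) fell. The count lower is near the 21.1% lower of all genes, where 18.5% were higher. Lin28b, a fetal RNA-binding regulator, was at -0.16 ± 0.18 and did not pass.

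Markers of committed lineages were mostly lower in stem cell-like wells. Of 15 granulocyte and monocyte genes 10 fell and 3 rose (median -1.10), with Elane (-2.90 ± 0.15) and Csf1r (-2.55 ± 0.23) lower and Gfi1, Cd63 (0.62 ± 0.10) and Gstm1 (0.43 ± 0.12) higher. Of all genes, 21.1% were lower and 18.5% higher, so the 3 that rose are near the latter share. Mast cell and basophil genes had 4 of 5 lower, and macrophage genes 8 of 9, including the complement genes C1qc (-2.62 ± 0.22) and C1qb (-2.36 ± 0.24). The macrophage markers summed to 0.701 ± 0.547 UMIs per 10000 in stem cell-like wells and 2.97 ± 1.75 in other wells. Of 12 lymphoid genes 8 fell and 3 rose (median -0.97), but the summed level of the list was 14.9 ± 1.97 UMIs per 10000 in stem cell-like wells and 15.6 ± 3.44 in other wells, lower in 6 and higher in 4 of 10 plates. Satb1, a chromatin organiser of early lymphoid cells, averaged 65.9 ± 31.7 CPM in stem cell-like wells and 169 ± 65.8 in other wells (-1.31 ± 0.10), and Cd52, Ccr9 and Rag2 fell with it, while Bcl11a (0.28 ± 0.06), Mef2c (0.30 ± 0.08) and Lsp1 (0.41 ± 0.08) rose. Dendritic markers had 3 of 4 lower, among them Id2 (-1.26 ± 0.19). In the hepatocyte list 1 gene was tested, Trf, which fell (-0.77), and in the B cell list 1 of 2 fell.

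Erythroid genes had 10 of 11 lower with a median log2 fold change of -2.46, including Rhag (-3.81 ± 0.20), Ermap (-3.08 ± 0.19) and Gata1 (-2.62 ± 0.21), but the rule removed Klf1-positive wells from the stem cell-like class alone. Against other wells without a Klf1 UMI, 5 erythroid genes were tested, of which 2 were lower and 1 higher, with a median of -0.39, where 16.5% of all 9401 genes tested were lower and 14.5% higher. Megakaryocyte genes had 1 of 8 higher, Gp9 (1.03 ± 0.23), and 1 lower, Plek (-2.35 ± 0.21). Neither count exceeds the share of all genes, 18.5% higher and 21.1% lower. The megakaryocyte list summed to 3.57 ± 0.763 UMIs per 10000 in stem cell-like wells and 3.54 ± 0.575 in other wells. In the T, NK and innate lymphoid list Gata3 rose (1.57 ± 0.21), 1 of 3 tested. Markers of endothelium had 4 of 5 tested genes higher, Tie1 (1.56 ± 0.11), Emcn (1.19 ± 0.14), Sox18 (1.54 ± 0.31) and Egfl7 (0.38 ± 0.08), several of which stem cells also express. Over 13 listed endothelial genes the sum was 4.06 to 5.58 UMIs per 10000 in stem cell-like wells and 2.03 to 3.28 in other wells. Sox17 and Oit3 were at 0 in all 331 wells, and the part of endothelial cells in the result was not tested. Stromal markers summed to 0.085 ± 0.044 UMIs per 10000 in stem cell-like wells and 0.120 ± 0.054 in other wells, and none passed the filter.

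**Figure D4:**
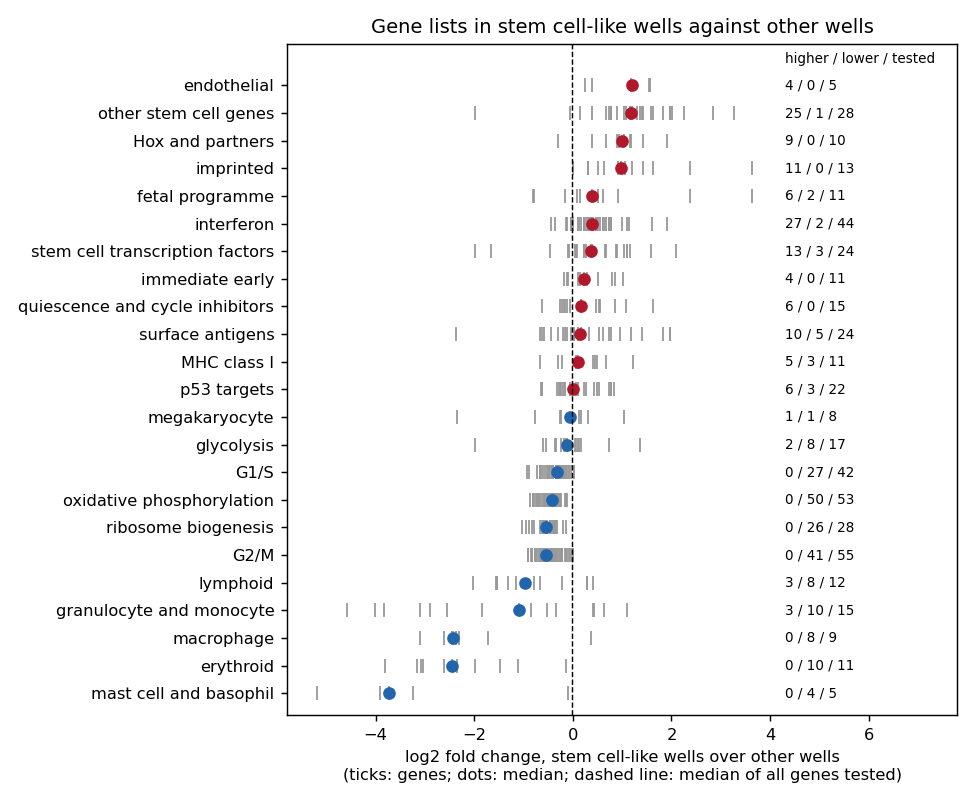
Log2 fold change of stem cell-like over other wells (x axis) for the genes of each list with at least 5 tested members (grey ticks), with the median as a dot and the median of all tested genes as a dashed line. The numbers at the right give genes higher, genes lower and genes tested; the stem cell list reads 25, 1 and 28 and the G2/M list 0, 41 and 55.

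Genes of cell division and growth were lower. Of 55 G2/M genes 41 fell and none rose, against 21.1% of all genes lower, with a median log2 fold change of -0.55. Cks2 (-0.84 ± 0.09), Ube2c (-0.92 ± 0.12), Cdc20 (-0.92 ± 0.14) and Aurkb (-0.91 ± 0.13), which act in mitosis, were among them. The proliferation antigen gene Mki67 averaged 281 ± 182 CPM in stem cell-like wells and 447 ± 112 in other wells (-0.74 ± 0.10), lower in 9 of 10 plates, and was detected at 3000 UMIs in 29.3% of stem cell-like wells and 52.6% of other wells. Of 42 G1/S genes 27 fell and none rose (median -0.32), among them the cyclin E gene Ccne1 (-0.94 ± 0.16) and the ribonucleotide reductase genes Rrm2 (-0.89 ± 0.09) and Rrm1 (-0.66 ± 0.07). Pcna itself fell (-0.40 ± 0.06) in 10 of 10 plates. The summed G2/M level was 68.3 ± 27.3 UMIs per 10000 in stem cell-like wells and 89.6 ± 15.5 in other wells, lower in 9 of 10 plates. After selection and sums at 3000 UMIs per well, 8 of 49 G2/M genes were lower, with a median of -0.21, where 6.31% of all 4989 genes tested were lower and 6.25% higher, and Mki67 was no longer called (-0.28, edgeR adjusted p = 0.0714).

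Inhibitors of the cycle and genes of quiescence had 6 of 15 higher and none lower, with Cdkn1c, Txnip, Klf6 (0.86 ± 0.12), Foxo1 (0.47 ± 0.14), Cdkn2d (0.53 ± 0.17) and Rbl2 (0.56 ± 0.22). Cdkn1a, the p21 gene, was at -0.27 ± 0.21 and did not pass (edgeR adjusted p = 0.324). Of 28 ribosome biogenesis genes 26 fell and none rose (median -0.54), including Npm1 (-0.53 ± 0.04), Ncl (-0.63 ± 0.05) and Nolc1 (-1.02 ± 0.09). Of 53 nuclear genes of oxidative phosphorylation 50 fell and none rose (median -0.43), including the cytochrome c gene Cycs (-0.87 ± 0.07) and Atp5g1 (-0.81 ± 0.07). Glycolysis genes had 8 of 17 lower and 2 higher (median -0.12): Ldha (-0.60 ± 0.05) and Pgam1 (-0.55 ± 0.06) fell, while the brain-type aldolase Aldoc (1.35 ± 0.22) and the glucose transporter gene Slc2a1 (0.72 ± 0.12) rose. The count higher does not exceed the 18.5% higher of all genes, where 21.1% were lower. In summed level, ribosome biogenesis stood at 63.0 ± 10.7 UMIs per 10000 in stem cell-like wells and 86.5 ± 14.9 in other wells, and oxidative phosphorylation at 122 ± 19.8 and 154 ± 17.9 in the same order, each lower in 10 of 10 plates.

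Interferon-stimulated genes were higher in stem cell-like wells. Of 44 tested 27 rose and 2 fell, with a median log2 fold change of 0.38. The guanylate-binding protein gene Gbp7 averaged 209 ± 60.8 CPM in stem cell-like wells and 104 ± 32.4 in other wells (1.00 ± 0.08), and Iigp1 (1.90 ± 0.22), Ifi44 (1.60 ± 0.15), Gbp3 (1.10 ± 0.18) and Trim30a (0.72 ± 0.08) rose too. Bst2 (-0.35 ± 0.11) and Isg20 (-0.45 ± 0.17) fell. The summed level was 30.2 ± 14.0 UMIs per 10000 in stem cell-like wells and 20.6 ± 8.76 in other wells, higher in 10 of 10 plates. The antigen presentation genes H2-K1 (0.67 ± 0.06), B2m (0.40 ± 0.05), H2-D1 (0.45 ± 0.07) and their activator Nlrc5 (1.22 ± 0.22) rose, 5 of 11 in the MHC class I list, while the immunoproteasome genes Psmb8 and Psmb10 and the transporter gene Tap2 fell. Of 22 p53 targets 6 rose and 3 fell with a median of 0.00, near the 18.5% higher and 21.1% lower of all genes: Sesn1 (0.74 ± 0.08) rose and Rps27l (-0.63 ± 0.07) and Aen (-0.64 ± 0.15) fell. Immediate early genes had 4 of 11 higher, Klf6, Jun (1.02 ± 0.22), Dusp1 (0.79 ± 0.25) and Jund (0.29 ± 0.11), and none lower.

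The wells of the class were also described along the score that chose them, pooled over plates and with no test, so plate and genotype may differ along it. Split into 3 parts by score, the wells with the lowest, middle and highest scores held a mean of 23.3, 14.8 and 10.8 G2/M UMIs per 3000, and 15.1, 14.6 and 11.9 G1/S UMIs. The interferon genes stood at 8.72, 9.21 and 10.2 UMIs per 3000 from the lowest to the highest part, and the erythroid genes at 2.44, 1.94 and 2.16. The median depth of these parts was 13190, 14360 and 11510 UMIs. Over all 2811 wells thinned to 3000 UMIs, the genes outside the rule whose level followed the score most closely were Ifitm1 (Spearman 0.42), Mycn (0.34), H19 (0.30), Lmo2 (0.28) and Gimap6 (0.27), among 7289 compared. The coefficient was positive for each in all 11 plates with at least 50 wells, and is a description over wells that share plates and depth.

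The comparison of genotypes within the class asks whether stem cell-like wells that carry the mutations differ from those of WT. Sums over these wells were fitted with genotype and sort session as terms, over 10 plates. Session 1 holds 1 WT plate, so the double mutant and Pcna K164R estimates against WT rest on WT replicate 1. That plate was read on a flow cell that held no other plate of the series. Genotype and flow cell therefore cannot be told apart in these estimates. The Rev1 knockout estimate rests on replicates 2 and 3 of Rev1 knockout and of WT. Rev1 knockout replicate 1 was the only plate fitted in its session and does not inform it. The double mutant rested on 5 and 6 wells in replicates 1 and 2. Of 7460 genes tested, 3 (0.0402%) differed between the double mutant and WT. H19 stood at 141 and 114 CPM in double mutant replicates 1 and 2, against 653, 276 and 374 CPM in WT, so the groups did not overlap. Its log2 fold change was -2.39 ± 0.43 (edgeR adjusted p = 0.0352). Mga, which encodes a Max-binding repressor, stood at 11.7 and 25.3 CPM in the double mutant against 157, 169 and 129 CPM in WT (-2.93 ± 0.56, edgeR adjusted p = 0.0486). The double mutant values rest on 1 and 4 Mga UMIs. In the other wells Mga was below every WT plate too, at 33.9 and 55.5 CPM in the double mutant against 112, 107 and 84.9 CPM in WT. The haemoglobin beta RNA Beta-s was higher (4.02 ± 0.73, edgeR adjusted p = 0.0352), at 117 and 916 CPM in the double mutant against 34.1, 64.1 and 217 CPM in WT, with groups that overlapped. The other wells of the same plates held 1119 and 702 CPM of Beta-s in the double mutant and 210, 784 and 1327 CPM in WT, and the part of free RNA from red cells was not tested.

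Other double mutant values did not pass. Cdkn1a stood at 23.5 and 139 CPM in the double mutant against 9.29, 9.502 and 28.1 CPM in WT (3.26 ± 0.87, edgeR adjusted p = 0.374), with groups that overlapped. Ppa1, an inorganic pyrophosphatase gene, was at 1.57 ± 0.42 and Flt3 at -1.62 ± 0.46. Dlk1 stood at 11.7 and 25.3 CPM in the double mutant against 135, 83.2 and 92.8 CPM in WT, and Igf2 at 0 and 12.6 against 108, 68.9 and 158 CPM, so Meg3, H19, Igf2 and Dlk1 all lay below every WT plate. In the other wells of double mutant replicates 1 and 2, Igf2 (1.43 and 1.47 CPM against 14.4, 6.23 and 4.34 in WT), Dlk1 (18.4 and 18.5 against 72.8, 56.9 and 39.6) and Meg3 (3.14 and 1.47 against 26.7, 29.9 and 12.5) lay below every WT plate too. H19 in other wells, at 96.2 and 39.2 CPM in the double mutant against 212, 68.9 and 52.6 CPM in WT, overlapped. Meg3 was used by the rule, and Dlk1 and Igf2 are named here after their values were seen. The share of all genes that lay below every WT plate was not counted. The interferon list had 5 of 43 fold changes above 0 and a median of -1.29, the G2/M list 53 of 55 above 0 and a median of 0.80 and the p53 target list 12 of 15 above 0 and a median of 0.85, against -0.02 for all genes, with none of their genes called. The imprinted list had 5 of 12 fold changes above 0, the highest at 0.88, a median of -0.54 and 1 gene called, H19. In plate means, the interferon and imprinted sums were below WT and the G2/M and p53 target sums above it in both classes. Interferon stood at 13.2 ± 3.3 UMIs per 10000 in stem cell-like wells of the double mutant and 31.6 ± 7.13 in WT. In other wells it stood at 9.66 ± 2.1 and 22.0 ± 3.59. The G2/M sum in other wells was 100.2 ± 4.62 in the double mutant and 88.1 ± 13.9 in WT.

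Rev1 knockout differed from WT in 5 of 7460 genes (0.067%) within stem cell-like wells. Xist, the RNA of the inactive X chromosome, stood at 578, 624 and 530.5 CPM in Rev1 knockout replicates 1 to 3, against 1.03, 2.38 and 2.81 CPM in WT (7.66 ± 1.31, edgeR adjusted p = 0.0153). The Y-linked genes Ddx3y and Kdm5d gave 0 UMIs in the Rev1 knockout plates, at least 99.6-fold and 30.6-fold lower than WT on a floor of 3 counts over the group (edgeR adjusted p = 0.0458 for each). The X- and Y-linked RNAs thus separate these groups, and fetal sex and genotype cannot be told apart here. Pcna K164R replicate 1 held Ddx3y (157 CPM) and no Xist, replicate 2 Xist (473 CPM) and no Ddx3y, and both double mutant plates held both RNAs. Apoe, an apolipoprotein gene, stood at 195, 319 and 267 CPM in Rev1 knockout against 185, 64.1 and 101 CPM in WT (1.83 ± 0.31, edgeR adjusted p = 0.0153). This estimate rests on replicates 2 and 3, at 319 and 267 against 64.1 and 101 CPM, and not on the 195 and 185 CPM of replicate 1. Beta-s was lower (-5.99 ± 1.18, edgeR adjusted p = 0.0458), at 3.42, 4.91 and 0 CPM in Rev1 knockout. Mir5109, next by p among those above 0, was at 2.28 ± 0.46 (edgeR adjusted p = 0.0573). Cdkn1a (-1.25 ± 1.02) and Flt3 (-0.61 ± 0.31) did not pass. The interferon list had 36 of 43 fold changes above 0 and a median of 0.50. The G2/M list had 9 of 55 above 0 and a median of -0.34. The median of all genes was -0.01, and no gene of either list was called. In plate means, both sums shifted the same way in other wells. There the interferon sum was 30.3 ± 5.4 UMIs per 10000 in Rev1 knockout and 22.0 ± 3.59 in WT. The G2/M sum in other wells was 77.3 ± 20.7 and 88.1 ± 13.9 in the same order.

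Pcna K164R differed from WT in 2 of 7460 genes (0.0268%), both lower. Lars2, a mitochondrial leucyl-tRNA synthetase gene, stood at 92.3 and 72.1 CPM in Pcna K164R against 545, 85.5 and 222 CPM in WT (-2.70 ± 0.49, edgeR adjusted p = 0.0491). Mir5109 stood at 358 and 329 CPM against 2422, 259 and 799 CPM in WT (-2.82 ± 0.52, edgeR adjusted p = 0.0491). In both genes the groups overlapped, and the estimates rest on WT replicate 1, at 545 CPM for Lars2 and 2422 CPM for Mir5109. With flow cell in place of session the Mir5109 value was 0.16. Xist (7.39 ± 1.74), Bank1 (1.97 ± 0.52), Nov (2.26 ± 0.60) and Mt1 (-2.54 ± 0.53) did not pass, nor did Cdkn1a (1.62 ± 0.84) or Flt3 (-0.46 ± 0.33). The G2/M list had 50 of 55 fold changes above 0 and a median of 0.47, against 0.02 for all genes, with none called. In other wells the mean G2/M sum was above WT too, at 99.9 ± 3.71 UMIs per 10000 against 88.1 ± 13.9.

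**Figure D5:**
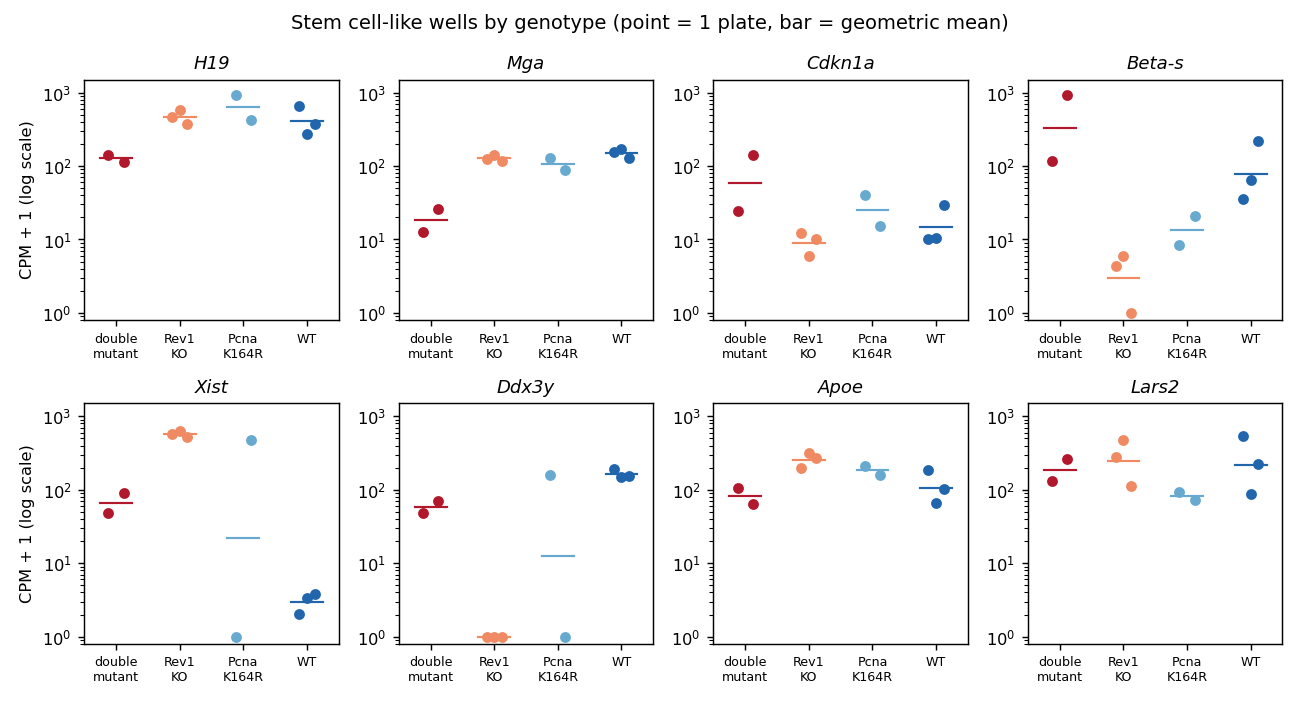
CPM + 1 (y axis, log scale) of 8 genes in stem cell-like wells of the double mutant, Rev1 knockout, Pcna K164R and WT, where each point is 1 plate and each bar the geometric mean. H19 and Mga are lower in both double mutant plates than in the 3 WT plates, and Xist and Ddx3y separate the Rev1 knockout from the WT plates.

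These counts of calls moved with the settings. The top 12% was also taken within each plate, so that plates gave a like share of their wells. Then 430 genes differed between the double mutant and WT, 239 higher and 191 lower. The library labelled double mutant replicate 4, whose Rev1 level in other wells lay in the WT range, entered this fit with 9 wells. The added double mutant wells score below the common limit. Without WT replicate 2 or WT replicate 3 no gene was called, and without Pcna K164R replicate 1 or 2, which share the fit, 15 were. DESeq2 called 0 genes in this comparison, with 204 at an unadjusted p under 0.05, against 518 in edgeR.

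The difference of these differences, in which CPM were scaled over both classes together, asks whether stem cell-like wells depart from other wells in the double mutant as they do in WT. Of 11348 genes tested, 4 (0.0352%) passed. The median of all genes was -0.18, and -0.04 with RLE size factors. Beta-s was lower in stem cell-like than in other wells in every WT plate and in double mutant replicate 1, but in double mutant replicate 2 it stood at 890 CPM in stem cell-like wells against 702 in other wells (2.23 ± 0.26, edgeR adjusted p = 5.21e-11). Without double mutant replicate 2 the value was -0.54. Car2, a carbonic anhydrase gene of red cell precursors, stood at 256 and 596 CPM in stem cell-like wells of the double mutant, where other wells held 905 and 1044 CPM. In WT, Car2 stood at 541, 726 and 607 CPM in stem cell-like wells and 750, 697 and 436 CPM in other wells (-1.22 ± 0.19, edgeR adjusted p = 1.08e-05). The rule removed Klf1-positive wells from the stem cell-like class alone. Wells without a Klf1 UMI were 212 of 330 and 132 of 243 other wells in double mutant replicates 1 and 2. In WT replicates 1 to 3 they were 234 of 309, 208 of 218 and 113 of 125. The difference of differences was not run against Klf1-free other wells. Ap3s2, an adaptor complex gene, gave 0 UMIs in 247708 in stem cell-like wells of the double mutant and 76 in 1749995 in WT, at least 3.59-fold lower on a floor of 3 counts over the group. Chga, the chromogranin A gene, gave 13 UMIs in stem cell-like wells of the double mutant and 0 in WT. Tspan2 (2.24 ± 0.58) and Tcp1 (-1.58 ± 0.37) did not pass, nor did Cdkn1a (0.21 ± 0.54) or Flt3 (0.09 ± 0.45). H19, at -1.07 ± 0.31, did not pass this test (edgeR adjusted p = 0.222).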

How the data were processed

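Single LSK cells were sorted into 384-well plates and read by SORT-seq, per the labels' protocols. For each of the 12 plates the authors deposited 3 tables per gene and well: read counts, counts of distinct UMIs, and transcript numbers, which are estimated counts corrected by the authors for UMIs drawn more than once. BWA 0.7.15 and the build GRCm38 (mm10) are named in the submitters' processing notes, and for the counting tool and its annotation the entry is "not given in the sources used here". Gene positions come from the GENCODE M21 annotation of GRCm38. The deposited UMI counts were used throughout, with read counts and transcript numbers, rounded to whole numbers, as alternatives.

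Wells with at least 3000 UMIs outside ERCC were scored and selected as described above. The 5 genes, the gene lists and the rule were chosen with earlier results of these data known. UMIs were summed per plate and class for the 10 plates with at least 5 stem cell-like wells, filtered with filterByExpr, scaled by TMM and tested with edgeR 4.0.16 (quasi-likelihood, R 4.3.3) at a Benjamini-Hochberg adjusted p of 0.05. Plate was a block between classes and sort session a term between genotypes. Standard errors are the absolute log2 fold change divided by the square root of F. DESeq2 1.42.0 was an alternative, and the fits were tested on simulated counts with known changes. Well measures were compared by an exact sign-flip permutation test over plates. Replicate plates differed by more than sampling noise, with a chi-square per degree of freedom of 1.54 to 6.02 in stem cell-like wells. No doublet caller was run on these single-cell sorts.

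Genes were named by a fixed rule. Between classes these are the 15 called higher and the 10 called lower with the smallest p. Between genotypes these are all genes called, with the 3 smallest p per direction given as values where fewer than 3 passed. For each list up to 4 members were taken by adjusted p, and further members were named after their values were seen. Rev1, Pcna, Cdkn1a, Flt3, Ly6a, Kit, Cd34, Cd48, Slamf1 and Mki67 were always named. Some genes the rule names are not reported here.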

Additional observations from a re-analysis of the deposited data

Results flagged for a closer look

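Of 30 measures tested for a plate far from the others, 3 were, and in each it was double mutant replicate 1, which rests on 5 stem cell-like wells. Chance marks about 1 in 20. Its log2 ratio of endogenous to ERCC UMIs between stem cell-like and other wells was -1.416, against -0.698 to -0.324 in the other 9 plates. For Igf2 the difference in log2(CPM + 1) was -1.28, against 2.10 to 4.83 elsewhere, and for Ctsg -7.356, against -4.98 to -2.36. Both genes were at 0 in the stem cell-like wells of this plate, which summed to 84258 UMIs. Their differences therefore depend on the 1 CPM added to each value.

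In 4 genes the difference between stem cell-like and other wells itself differed between the double mutant and WT in edgeR's quasi-likelihood test. The log2 difference of differences was 2.231 for Beta-s, -1.219 for Car2, -10.28 for Ap3s2 and 9.132 for Chga. For Ap3s2 and Chga a group at 0 UMIs makes the fitted value depend on the prior count, and for Beta-s the sign rests on double mutant replicate 2.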

How the results depend on the processing

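The double mutant rests on 11 stem cell-like wells in 2 plates, and the score depends on depth, so small counts of calls between genotypes are the least settled values. Between stem cell-like and other wells, 627 genes were called after thinning to 3000 UMIs and 1941 in session 3 alone, against 3824, and 3387 to 3804 without each replicate in turn. With no replicate block 2775 were called. Replicate numbers shared by genotypes were not used as pairs, and that fit was not run.

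Between the double mutant and WT, 3 calls became 20 with no filter, 0 with DESeq2, 0 with read counts, 6 after thinning, 1 at 6000 UMIs or more, 85 in the top 20%, 430 with the top 12% within each plate, 30 with flow cell as a term and 0 to 15 without each replicate. For Rev1 knockout, 5 became 22 with no filter, 2 with DESeq2, transcript numbers, thinning or the top 6%, 0 with read counts, 19 in the top 20%, 1 with Klf1 wells removed first, 16 within each plate, 3 with at least 10 wells per plate, 12 in session 3 alone, 10 with flow cell and 0 to 14 without each replicate. For Pcna K164R, 2 became 6 with no filter, 0 with DESeq2, transcript numbers, read counts, the top 6%, Klf1 wells removed first or no session term, 4 after thinning, 1 in the top 20%, within each plate or with at least 10 wells per plate, 5 in session 1 alone, 9 with flow cell and 0 to 9 without each replicate. For the difference of differences, 4 became 0 with DESeq2 or read counts, 10 after thinning, 17 in the top 20%, 122 within each plate, 1 in session 1 alone and 2 to 12 without each replicate. The cause was not tested. In the top 20% and within each plate, the library labelled double mutant replicate 4 also entered the fits, with 6 and 9 wells. The test of the double mutant against WT within stem cell-like wells could not be fitted for the top 6%, Klf1 wells removed first, at least 10 wells per plate, session 3 alone or without WT replicate 1.

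The mean share in the double mutant was 3.60% after thinning, 0.134% in the top 6%, 5.61% in the top 20%, and 3.18%, 2.77% and 0.968% with Hlf, Meg3 or Mecom left out of the score. It was 22.0% in Rev1 knockout for the top 20%. In Pcna K164R it was 8.71% after thinning, 4.33% and 17.2% for the top 6% and 20%, and 9.04% with Klf1 wells removed first, and in WT 10.5%, 29.0% and 15.1% for the last 3. Leaving out each plate of at least 50 wells, chosen after seeing the data, gave 1.35 to 1.95% in the double mutant, 8.90 to 16.4% in Rev1 knockout, 10.04 to 11.7% in Pcna K164R and 17.7 to 19.3% in WT. Taking 12% within each plate fixes the share.

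Log2 values changed sign in these cases. Between classes they were Thy1 with read counts (-0.032) and no block (-0.065), F2r (0.11) and Cd79b (-0.43) after thinning, Cd3d in the top 6% (-0.053), Rev1 in session 3 (0.21), with no block (0.21) and without each replicate in turn (-0.18 to 0.018, above 0 without Pcna K164R replicate 2), Cdkn1a in session 3 (0.31), and Mt2 (0.17) and Blvrb (0.15) against Klf1-free wells. For Pcna K164R they were Flt3 after thinning (0.25), Mir5109 (0.16) and Mt1 (0.67) with flow cell, and Xist without each replicate (-2.33 to 8.50, below 0 without Pcna K164R replicate 2). For the difference of differences they were Cdkn1a with DESeq2 (-0.25), read counts (-0.62), the top 20% (-0.35), within each plate (-0.25) and without each replicate (-1.63 to 1.01, and -1.08 without WT replicate 1), Ap3s2 (0.11) and Tcp1 (0.31) after thinning, Beta-s in the top 20% (-0.87) and without each replicate (-0.54 to 3.19, below 0 without double mutant replicate 2), and Flt3 without each replicate (-0.19 to 0.29).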
